A study of Homo sapiens with 6 samples.

Results

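The members are 10 genes, the calcineurin subunits PPP3CA, PPP3CB, PPP3CC and PPP3R1, the NFAT transcription factors NFATC1, NFATC2, NFATC3, NFATC4 and NFAT5, and the calcineurin inhibitor RCAN1, of the 29810 genes in the mRNA-seq table of Kasumi-1 cells. The genes were found by symbol through their Ensembl identifiers, and each of them had a row. The family was chosen by the values of PPP3R1, which was lower in all 3 I3 libraries than in any control library, so PPP3R1 is described here without a test. Kasumi-1 is a human acute myeloid leukemia cell line with t(8;21) and its fusion gene RUNX1-RUNX1T1, and I3 is an inhibitor of histone deacetylases. Of the 6 libraries, 3 came from control cultures, which received the solvent DMSO, and 3 from cultures incubated with 0.25 µM I3 for 48 h. All of them are cultures of the same unmodified line. The labels do not say whether the 3 cultures of a group were grown separately, so p-values measure only the spread between these samples, which may be technical. The control libraries held 17663213 (control 1), 17798678 (control 2) and 17500320 (control 3) counted reads. The I3 libraries held 17818414 (I3 1), 17794814 (I3 2) and 18193372 (I3 3).

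Calcineurin is a phosphatase that is switched on by calcium and calmodulin. It is built from a catalytic A subunit, encoded by PPP3CA, PPP3CB or PPP3CC, and a calcium-binding regulatory B subunit, which PPP3R1 encodes in most tissues. Active calcineurin removes phosphates from the NFATC proteins, which then enter the nucleus and act with AP-1 and other partners, whereas NFAT5 shares their DNA-binding domain but lacks the calcineurin docking region and is known for the response to hypertonic stress. RCAN1 binds calcineurin and restrains it, and one of its promoters is itself a known NFAT target. In leukocytes the pathway is best known as the target of cyclosporin A and tacrolimus, and VEGF receptors also signal through it.

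Levels are given in FPKM, that is, fragments scaled by exon length and by the total of the library, so that they can be set side by side between genes. In control libraries the members ranked by mean level, from high to low, as PPP3CB, PPP3CA, PPP3R1, NFATC3, NFATC2, NFAT5, PPP3CC, RCAN1, NFATC1 and NFATC4. The ranges of PPP3CB and PPP3CA overlapped, as did those of NFATC3 and NFATC2 and those of PPP3CC and RCAN1, and the other neighbours in this order were apart. Library by library, NFATC3 was above NFATC2 in all 3 controls and PPP3CC above RCAN1 in 2. PPP3CB was above PPP3CA in all 3 libraries of either group. In I3 libraries NFAT5 stood before NFATC2, and the order was otherwise the same. There the ranges of PPP3CB and PPP3CA, of PPP3R1 and NFATC3, and of NFAT5 and NFATC2 overlapped, while PPP3CC lay above RCAN1 in all 3 libraries. By mean level over the 6 libraries, PPP3CB ranked 2139 and NFATC1 ranked 12885 among the 26609 genes with a read in any library.

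Among the 9 members other than PPP3R1, 8 passed the minimum mean of 0.5 FPKM and were tested with limma on log2(FPKM + 0.5), a scale that understates the change of low genes. A gene was called when its adjusted p was under 0.05 and its log2 fold change reached 0.58 in size. No member was called, and neither was any gene of the 12960 tested (0%), also with voom on rebuilt reads. At an unadjusted p under 0.05, 2 of the 8 members passed, NFAT5 with a higher and RCAN1 with a lower level in I3 libraries. Over all tested genes that number was 639 (4.93%), with 2.08% higher and 2.85% lower. The control and I3 values did not overlap for 3 of the 8, NFAT5 and PPP3CC (higher) and RCAN1 (lower), against 9.7% of all tested genes (5.06% higher and 4.64% lower). The median log2 fold change of the 8 members was -0.018 and that of all tested genes was 0.011.

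**Figure D1:**
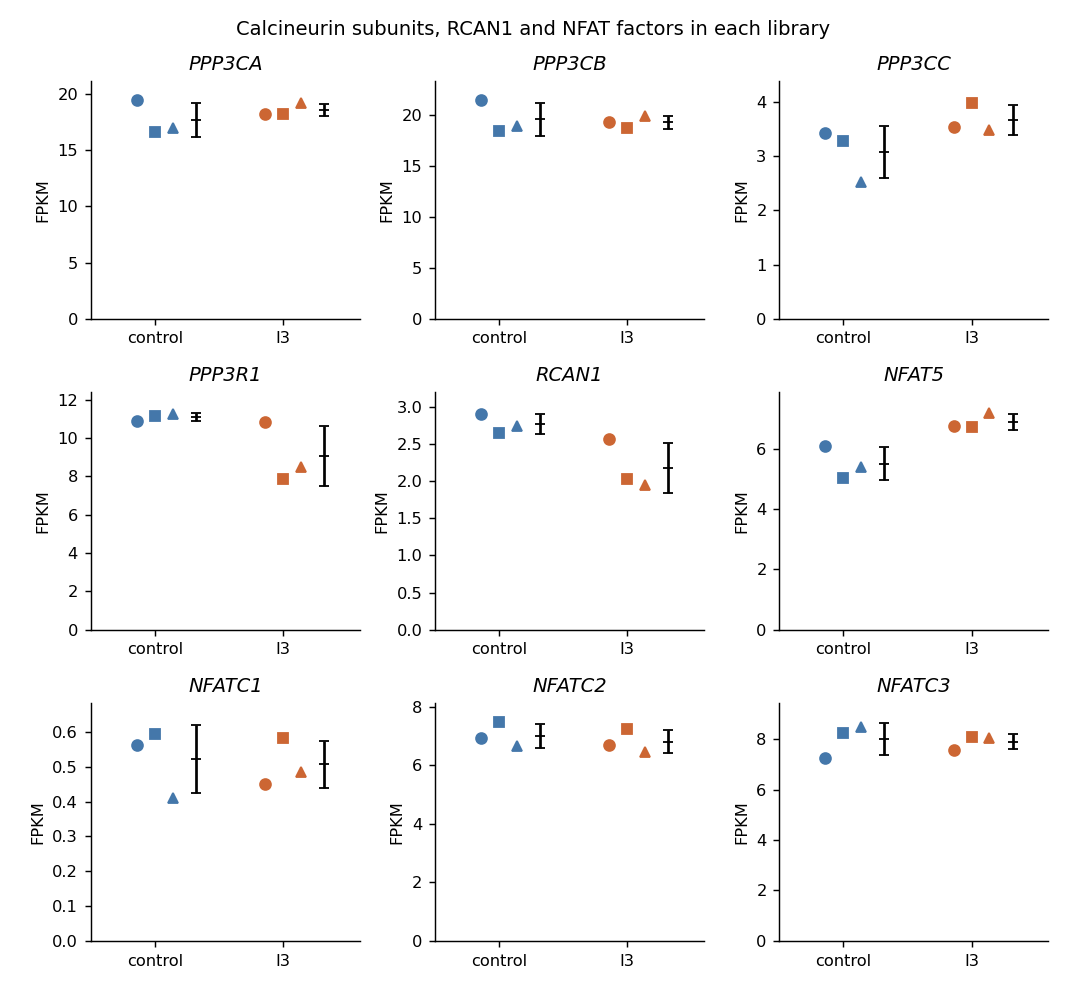
FPKM of the 9 members above 0 in each library, with control in blue and I3 in orange, circles, squares and triangles for replicates 1, 2 and 3, and the mean with SD in black (n = 3 per group). Each panel has its own axis from 0. The groups do not overlap in the panels of PPP3R1, PPP3CC, RCAN1 and NFAT5, and I3 1 stays close to the control libraries for PPP3R1.

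PPP3R1 (ENSG00000221823) lies on the minus strand at chr2:68178857-68256237 (GRCh38). Its level was 10.9, 11.1 and 11.3 FPKM in the control libraries and 10.8, 7.84 and 8.50 FPKM in the I3 libraries, a mean of 11.1 ± 0.189 against 9.06 ± 1.58 FPKM (SD, n = 3 each). The lower mean rested on I3 2 and I3 3, since I3 1 lay only 0.0448 FPKM below the lowest control library. In reads rebuilt from FPKM the counts were 647, 666 and 663 in control and 650, 469 and 520 in I3 libraries, so that I3 1 did not stand below the controls in raw reads. The log2 fold change was -0.29 (SE 0.113), and -0.42 without I3 1, -0.20 without I3 2 and -0.25 without I3 3. PPP3R1 shares 462 exon bases with a protein-coding gene on the same strand and 700 with an antisense gene, neither of which has a row in the table, and the sources used here do not state how reads there were assigned.

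By the likeness of their log2 levels over the 6 libraries, the genes closest to PPP3R1 among 6641 compared were SPG21 (Pearson r of 0.989), PHGDH, which opens the serine synthesis pathway (0.978), CMTM8 (0.978), the translation release factor GSPT1 (0.976) and EBPL (0.975). They were picked for this pattern and receive no test. PHGDH had 7.58, 7.85 and 7.48 FPKM in control and 7.42, 6.06 and 6.56 FPKM in I3 libraries. EBPL had 64.1, 62.3 and 61.5 FPKM in control and 58.3, 27.7 and 26.3 FPKM in I3 libraries. In both genes I3 1 was the I3 library nearest to the controls.

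PPP3CB and PPP3CA were the most abundant members in both groups. PPP3CA, the alpha form of the catalytic subunit (chr4:101023409-101348278, minus strand), had 19.4, 16.6 and 17.0 FPKM in control and 18.3, 18.3 and 19.2 FPKM in I3 libraries. The values overlapped, and the log2 fold change was 0.07 (95% interval -0.099 to 0.240, adjusted p = 0.998). It was 0.14 without control 1, its highest library, with an unadjusted p under 0.05, as for 11% of all tested genes in that fit. It was 0.029 without control 2, 0.044 without control 3 and 0.028 after correction of each library for GC content, and in none of these was the unadjusted p under 0.05. PPP3CB, the beta form (chr10:73436428-73496024, minus strand), had 21.4, 18.4 and 18.9 FPKM in control and 19.2, 18.6 and 19.9 FPKM in I3 libraries. These overlapped too, with a log2 fold change of -0.02 (95% interval -0.187 to 0.148, adjusted p = 0.998). The intervals exclude a change of 0.58 in either direction for both genes.

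PPP3CC, the gamma form, which is best known from testis (chr8:22440819-22541142, plus strand), was far below the other catalytic subunits. It had 3.44, 3.28 and 2.52 FPKM in control and 3.54, 3.99 and 3.49 FPKM in I3 libraries. Every I3 library was above every control library, by a gap of 0.0515 FPKM. The log2 fold change of 0.23 (SE 0.119) did not pass (adjusted p = 0.998, limma; unadjusted p = 0.0928; exact permutation p = 0.1, the smallest that 3 against 3 libraries allow). The log2 fold change was 0.11 without control 3, the lowest control library, and 0.30 without control 1. Its unadjusted p was under 0.05 without control 1, as for 11% of all tested genes in that fit. The read counts behind it were low, 473 in the control and 573 in the I3 libraries, and 14 to 27 reads per library were listed for an antisense gene that shares 298 exon bases with it.

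The 3 catalytic subunits summed to 40.3 ± 3.41 FPKM in control and 41.5 ± 0.916 FPKM in I3 libraries. PPP3CB made up 48.3, 48.0 and 49.2% of that sum in control and 46.9, 45.6 and 46.7% in I3 libraries, so that the groups did not overlap. The ratio of PPP3CB to PPP3CA, largely the same contrast, was 1.10, 1.10 and 1.11 in control and 1.05, 1.02 and 1.04 in I3 libraries, again without overlap. Among single genes 9.7% of those tested did not overlap, and no such share was computed for ratios of genes. In pooled reads PPP3CB was 51.9% of PPP3CA and PPP3CB together in control libraries (Wilson 95% interval 50.9 to 52.9%). In I3 libraries it was 50.3% (49.4 to 51.3%). These intervals cover counting error only, and their overlap is not a test of the difference. By library this share of reads was 51.8, 51.9 and 52.0% in control and 50.7, 49.9 and 50.3% in I3 libraries.

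The ratio of PPP3R1 to the summed catalytic subunits was 0.246, 0.290 and 0.293 in control and 0.264, 0.192 and 0.200 in I3 libraries. Here the groups did overlap, because I3 1 lay above control 1, in which PPP3CA and PPP3CB were at their highest. The ratio uses the values that chose the family and is given as a description.

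**Figure D2:**
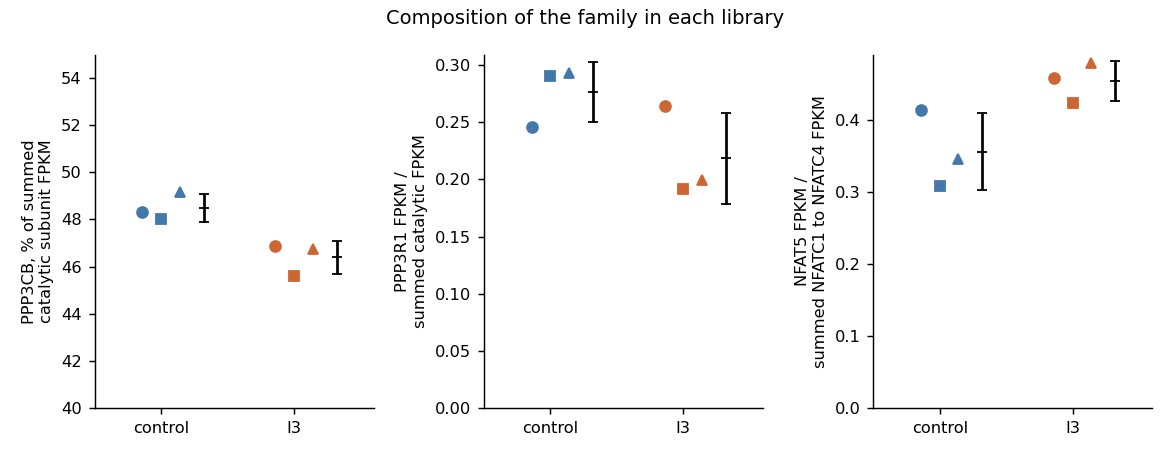
Share of PPP3CB in the summed catalytic subunits (percent, axis not starting at 0), ratio of PPP3R1 to that sum, and ratio of NFAT5 to the summed NFATC genes in each library. Symbols are as in the plot of FPKM by library, with the mean and SD in black (n = 3). The PPP3CB share and the NFAT5 ratio separate the groups, whereas for the PPP3R1 ratio I3 1 (0.264) lies among the control libraries. How often other ratios of genes separate the groups was not computed.

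RCAN1 (ENSG00000159200, chr21:34513142-34615142, minus strand), the inhibitor of calcineurin, had 2.91, 2.65 and 2.75 FPKM in control and 2.57, 2.03 and 1.95 FPKM in I3 libraries. All I3 libraries were below all control libraries, by a gap of 0.0832 FPKM, and I3 1 was again the I3 library nearest to the controls. The mean was 2.77 ± 0.129 FPKM in control and 2.18 ± 0.338 FPKM in I3 libraries (SD, n = 3 each), a ratio of 0.788. The log2 fold change of -0.29 (SE 0.111, 95% interval -0.554 to -0.031) had an unadjusted p of 0.0331 and did not pass after adjustment (adjusted p = 0.998, limma; exact permutation p = 0.1). Leaving out any library except I3 1 brought the unadjusted p to between 0.0524 and 0.106, and without I3 1 it was 0.00806.

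GENCODE release 29 lists 14 RCAN1 transcripts with 13 start positions, and the gene-level FPKM does not tell them apart. RefSeq start windows of 250 bases were searched for GGAAA, the core that NFAT proteins bind, on both strands (as GGAAA or TTTCC, overlaps counted). Windows were found for 6 of the members, 15 in all, and PPP3CA, PPP3CB, PPP3CC and NFAT5 had no entry. Of all 35116 windows, 55.6% held at least 1 match. Of the 6 RCAN1 windows, the one before the start at position 34526822 of chromosome 21, inside the gene body, held 4 matches, a number that 1.87% of all windows reach. None was found in the other 5, which include other starts inside the gene body. Of the other members, NFATC2 had the window with most matches, 3, which 7.12% of windows reach. The PPP3R1 window held 1 match and also lay inside the gene body. GENCODE lists 3 PPP3R1 transcripts, of which 1 starts within 100 bases of the start after that window. These shares are for single windows of any GC content, whereas the RCAN1 and NFATC2 windows were picked as those with most matches. Their GC content was 46.8% (RCAN1) and 54.8% (NFATC2). The stretches below are shown because RCAN1 and PPP3R1 were lower in all 3 I3 libraries than in any control library, beside NFATC2, whose control and I3 values overlapped. They are from RefSeq on GRCh38.p14, written 5′ to 3′ on the minus strand with the matches in capitals, and the RCAN1 stretch is the 109 bases of its window outside annotated RCAN1 exons, with 3 of the 4 matches. They lie at chr21:34526964-34527072 (RCAN1), chr2:68252533-68252782 (PPP3R1) and chr20:51562840-51563089 (NFATC2).
RCAN1: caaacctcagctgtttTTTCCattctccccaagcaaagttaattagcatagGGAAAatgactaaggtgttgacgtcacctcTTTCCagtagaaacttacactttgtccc
PPP3R1: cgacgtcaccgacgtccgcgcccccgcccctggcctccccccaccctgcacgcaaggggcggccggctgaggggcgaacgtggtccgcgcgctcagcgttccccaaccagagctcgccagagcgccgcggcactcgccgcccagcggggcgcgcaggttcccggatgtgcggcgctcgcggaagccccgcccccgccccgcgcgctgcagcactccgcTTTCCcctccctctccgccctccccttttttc
NFATC2: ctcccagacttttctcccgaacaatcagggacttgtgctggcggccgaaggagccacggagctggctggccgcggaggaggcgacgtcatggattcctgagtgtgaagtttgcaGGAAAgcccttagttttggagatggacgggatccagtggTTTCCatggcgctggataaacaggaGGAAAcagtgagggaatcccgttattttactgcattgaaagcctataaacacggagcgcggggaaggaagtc
A match describes these letters only and does not show that a factor binds there. The last base of the RCAN1 stretch lies 142 bases before that start, and the other stretches end at the base before theirs.

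NFAT5 (ENSG00000102908, chr16:69565094-69704666, plus strand) was the member with the smallest p. It had 6.10, 5.02 and 5.38 FPKM in control and 6.75, 6.73 and 7.18 FPKM in I3 libraries. The groups were separated by 0.626 FPKM, and I3 1 lay with the other I3 libraries here. The mean was 5.50 ± 0.550 FPKM in control and 6.89 ± 0.255 FPKM in I3 libraries (SD, n = 3 each), a ratio of 1.25. The log2 fold change was 0.30 (SE 0.0837, 95% interval 0.106 to 0.499) with an unadjusted p of 0.00798, which did not pass after adjustment over all tested genes (adjusted p = 0.808, limma; exact permutation p = 0.1). Its unadjusted p stayed under 0.05 in each of the 18 alternatives, from 0.00132 to 0.0305, and its lowest adjusted p among them was 0.370. NFAT5 shares 1588 exon bases with a noncoding gene on the same strand that has no row in the table.

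**Figure D3:**
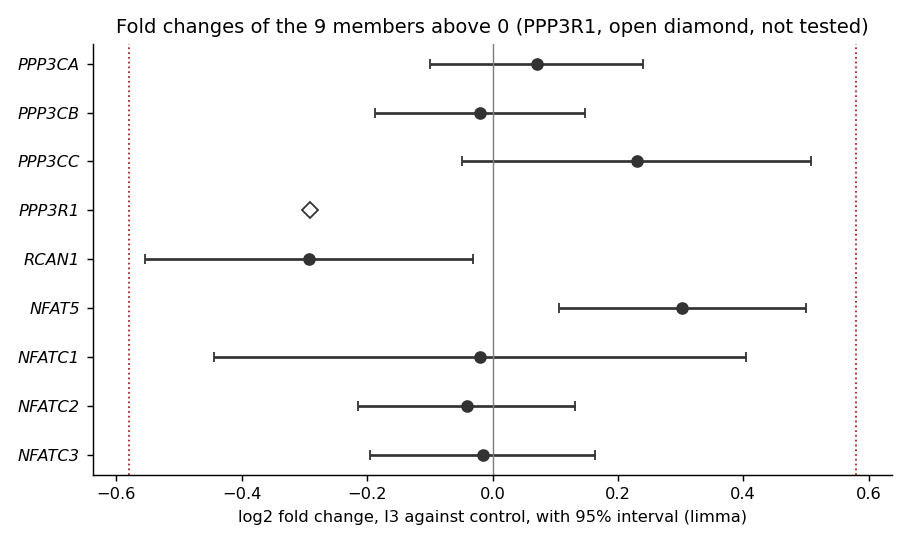
Log2 fold change of I3 against control from limma for the 9 members above 0, with points for the estimate and bars for the 95% interval, and PPP3R1 as an open diamond without interval because its values chose the family. Dotted lines mark a log2 fold change of 0.58 in either direction, and the estimates lie between -0.29 (RCAN1) and 0.30 (NFAT5).

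The calcineurin-regulated NFATC factors were led by NFATC3 and NFATC2. NFATC3 (chr16:68084751-68229259, plus strand) had 7.26, 8.26 and 8.49 FPKM in control and 7.56, 8.08 and 8.05 FPKM in I3 libraries, with a log2 fold change of -0.02 (95% interval -0.196 to 0.164). NFATC2, a main NFAT of T cells (chr20:51386957-51562831, minus strand), had 6.91, 7.46 and 6.65 FPKM in control and 6.71, 7.22 and 6.46 FPKM in I3 libraries, with a log2 fold change of -0.04 (95% interval -0.215 to 0.132). For both factors the values of the groups overlapped, those of NFATC3 in I3 libraries lying inside the control range, and the adjusted p was 0.998 (limma). NFATC3 shares 1385 exon bases with a same-strand gene that had 2 to 7 reads per library, and 2796 with an antisense gene that has no row.

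NFATC1 (chr18:79395856-79529325, plus strand), known for osteoclast and lymphocyte differentiation, was close to the minimum of 0.5 FPKM. It had 0.562, 0.595 and 0.410 FPKM in control and 0.452, 0.583 and 0.485 FPKM in I3 libraries, from 251 and 247 reads in all. Its log2 fold change of -0.02 had a wide 95% interval (-0.444 to 0.404, adjusted p = 0.999, limma). NFATC4 (chr14:24365673-24379604, plus strand) was listed at 0 in all 6 libraries, with 0 rebuilt reads. A count of 0 allows up to 3 reads, or 0.0195 to 0.0203 FPKM depending on the library, and this limit covers counting error only. Genes that every cell uses were not at 0, and TBP, the TATA-binding protein, had 10.7 to 12.6 FPKM.

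The 4 NFATC genes summed to 15.5 ± 0.784 FPKM in control and 15.2 ± 0.608 FPKM in I3 libraries. Of this sum NFATC3 made up 51.5 ± 2.75% in control and 52.0 ± 1.49% in I3 libraries, NFATC2 45.1 ± 2.12% and 44.7 ± 1.39%, and NFATC1 3.36 ± 0.638% and 3.32 ± 0.309%. The makeup of the NFATC group differed between the conditions by less than its spread between replicates. The ratio of NFAT5 to the summed NFATC genes was 0.414, 0.308 and 0.346 in control and 0.459, 0.424 and 0.479 in I3 libraries, without overlap. It rests on the NFAT5 values, which did not overlap either, and no share over other ratios was computed.

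Of 101 other genes of the pathway, listed with earlier results of these data known, 70 passed the minimum and were tested. At an unadjusted p under 0.05, 0 were higher and 1 was lower (1.43%, against 4.93% of all tested genes). The groups did not overlap for 7 (10%, against 9.7% of all tested genes), of which MAPK8 was higher and 6 were lower (ORAI1, CHP1, CXCL8, TNF, FOS and TFEB). Their median log2 fold change was -0.0054. None was called at the adjusted p and fold thresholds.

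Among regulators and ligands of calcineurin, 11 of 16 were tested and none had an unadjusted p under 0.05. The most abundant was PPIA, the cyclophilin bound by cyclosporin A, with 375 ± 19.6 FPKM in control and 381 ± 16.4 FPKM in I3 libraries. CHP1, a calcineurin-like EF-hand protein, was lower in every I3 library than in any control library (log2 fold change -0.13, adjusted p = 0.998, limma). It is named after its values were seen.

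In calcium entry and release, 14 of 16 genes were tested and ORAI1, the pore of the store-operated calcium channel, was the only one under the unadjusted threshold. ORAI1 had 15.5, 19.2 and 16.6 FPKM in control and 14.1, 13.0 and 12.6 FPKM in I3 libraries. All I3 values were below the control values, with a log2 fold change of -0.35 (SE 0.0899, adjusted p = 0.768, limma). ATP2A3, a calcium pump of the endoplasmic reticulum, had the highest level of the list and did not pass (log2 fold change -0.14, adjusted p = 0.998, limma).

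Of the kinases and transport factors that move NFAT between nucleus and cytoplasm, 14 of 16 were tested and none had an unadjusted p under 0.05. KPNB1, an importin, was the most abundant, with a log2 fold change of -0.0040. MAPK8, the kinase JNK1, had 6.79, 6.42 and 6.40 FPKM in control and 6.92, 7.11 and 7.62 FPKM in I3 libraries, so that all I3 values were above all control values (log2 fold change 0.13, adjusted p = 0.998, limma). All 12 of the other calcineurin substrates were tested and none was under the threshold, DNM1L, the mitochondrial fission GTPase, being the highest with a mean of 21.3 FPKM in control and 22.0 FPKM in I3 libraries. Of the NFAT partner factors 9 of 12 were tested, and the most abundant, the AP-1 subunit JUND, had 53.5, 50.8 and 45.4 FPKM in control and 45.8, 43.3 and 30.9 FPKM in I3 libraries. Those values overlapped (log2 fold change -0.33, adjusted p = 0.998, limma). The AP-1 subunit FOS had 1.07, 0.833 and 0.741 FPKM in control and 0.711, 0.659 and 0.645 FPKM in I3 libraries (log2 fold change -0.23, adjusted p = 0.998, limma). TFEB, a lysosomal transcription factor among the substrates, had 0.581, 0.587 and 0.556 FPKM in control and 0.547, 0.478 and 0.448 FPKM in I3 libraries (log2 fold change -0.12, adjusted p = 0.998, limma). In both genes the groups did not overlap.

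Of 20 NFAT target genes of immune cells, 6 had no row, 5 were listed at 0 and 6 were under the minimum. The 3 that were tested were CD69, CXCL8 and TNF, and none had an unadjusted p under 0.05. CXCL8, a chemokine for neutrophils, had 1.17, 0.964 and 0.829 FPKM in control and 0.716, 0.593 and 0.773 FPKM in I3 libraries (log2 fold change -0.31, adjusted p = 0.998, limma). TNF, an inflammatory cytokine, had 0.642, 0.704 and 0.648 FPKM in control and 0.603, 0.469 and 0.525 FPKM in I3 libraries (log2 fold change -0.18, adjusted p = 0.998, limma). For both genes all I3 values were below all control values, at levels close to the minimum. CD69, an early activation antigen and the highest of them, had 12.3 ± 3.11 FPKM in control and 13.2 ± 0.680 FPKM in I3 libraries, and its values overlapped. Of 9 osmotic target genes of NFAT5, 7 were tested, none was under the threshold and the groups overlapped for all 7. The most abundant, the amino acid transporter SLC38A2, had a log2 fold change of 0.09 (SE 0.111), and the median of the 7 was 0.023.

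**Figure D4:**
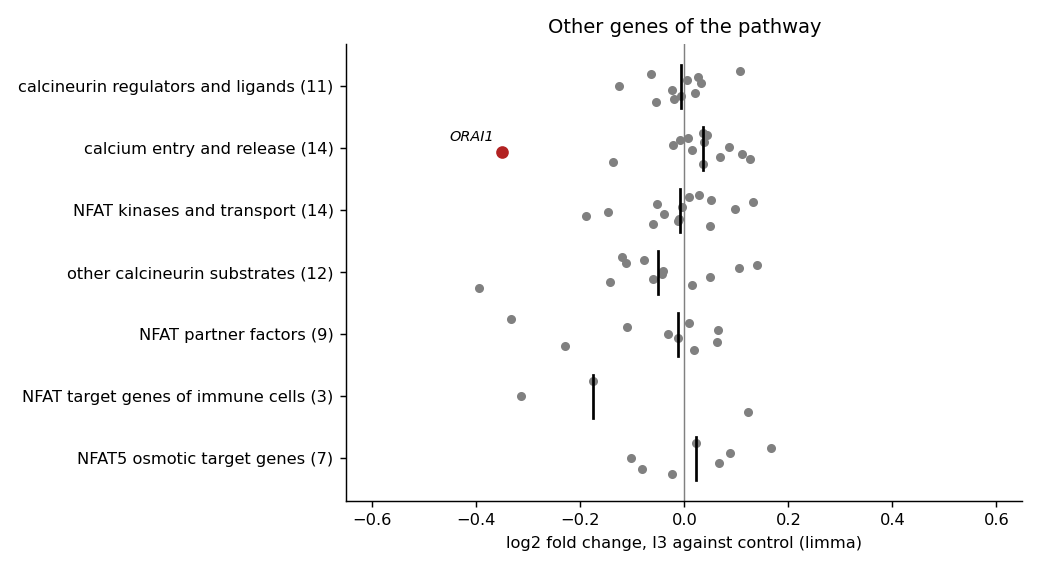
Log2 fold change of I3 against control from limma for each tested gene of the 7 pathway lists, with the number tested in brackets, points for genes and black bars for list medians. ORAI1, in red, is the single gene with an unadjusted p under 0.05, and the list medians lie between -0.18 (3 genes) and 0.036.

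The labelled cell type was checked with markers. All 7 myeloblast markers (KIT, CD34, MPO, CD33, CD38, PTPRC and ELANE) passed the minimum, and MPO, the granule enzyme of myeloid cells, had 7740 to 8612 FPKM. KIT had 198 to 225 FPKM, whereas CD38 had only 0.607 to 1.17 FPKM, close to the minimum. Of the T cell markers, CD3G had no row, CD2 was at 0 in 5 libraries, CD3E was at most 0.179 FPKM and CD3D at most 1.09 FPKM. Summed, the T cell list was 0.484, 1.15 and 0.471 FPKM in control and 0.382, 0.584 and 0.234 FPKM in I3 libraries. The B cell list summed to 1.02, 1.00 and 1.29 FPKM in control and 2.13, 1.88 and 1.09 FPKM in I3 libraries, nearly all of it CD79A. The monocyte list was 11.2, 7.12 and 9.55 FPKM in control and 11.6, 4.91 and 6.34 FPKM in I3 libraries, almost only LYZ, with CD14 at 0 in 5 libraries. LYZ and PPP3R1 were both highest in I3 1 within the I3 group, whereas within the control group control 1 had the highest LYZ and the lowest PPP3R1. RCAN1 followed the order of LYZ in the control libraries and was likewise highest in I3 1, while I3 2 and I3 3 stood in the opposite order. The groups overlapped for LYZ, with a log2 fold change of -0.34 (SE 0.293, adjusted p = 0.998, limma). The megakaryocyte list summed to at most 0.263 FPKM in a library and the erythroid list to at most 0.0263 FPKM. The part of these markers in the results was not tested.

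The libraries differed in how their levels moved with the GC content of the genes. The rank correlation over 12939 genes was -0.313, 0.446 and 0.337 in control 1, 2 and 3, and -0.232, 0.262 and -0.446 in I3 1, 2 and 3, so that both groups held both signs. The annotated transcripts of PPP3R1 and NFAT5 had a median GC content of 40.7 and 41.0%. After correction of each library for GC content, the log2 fold change was 0.25 for NFAT5, -0.33 for RCAN1 and -0.35 for PPP3R1. NFAT5 and RCAN1 kept an unadjusted p under 0.05 there. In these bulk libraries, fewer expressing cells and less RNA per cell cannot be told apart.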

How the data were processed

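mRNA-seq of 3 control and 3 I3 libraries of Kasumi-1 cells was analysed. The authors deposited 1 FPKM value for each gene and library, from stranded polyA libraries. The submitters' processing notes name Trimmomatic, HISAT2, Cufflinks, HTSeq and the build hg38, with no versions, and the methods tested differential expression with DESeq. Neither the annotation nor the use of strand in counting is stated in the sources used here. The labels give 48 h and a figure legend of the study gives 72 h. The name of the deposited table writes the compound as I13, and its columns and the labels write I3.

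Identifiers were matched to GENCODE release 29 (29703 of 29810). Reads were rebuilt from FPKM and exon length, and came out whole for 95.8% of 26519 genes (tolerance 0.1 read). The depth of 17500320 to 18193372 reads limits mainly low genes. limma 3.58.1 in R 4.3.3 (lmFit, eBayes with trend) was run on log2(FPKM + 0.5) for 12960 genes with a mean of at least 0.5 FPKM, two-sided, with Benjamini-Hochberg adjustment over all of them. The thresholds are those of the methods, but the test is not, because FPKM values are not counts. The procedure was tested on simulated data, but the outcome is not given here and no result rests on it. Permutation tests were exact and two-sided (scipy 1.17.1). Tables and plots were made with pandas 2.3.3 and matplotlib 3.10.9.

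The members, gene lists and tests were chosen with earlier results of these data known. Named were all 10 members, from each list the gene of highest level and up to 5 genes with an unadjusted p under 0.05, and the 5 genes of at least 5 FPKM most like PPP3R1. CHP1, MAPK8, FOS, TFEB, CXCL8 and TNF were named after their values were seen. Alternatives were pseudocounts of 0.1 and 1, no minimum and a minimum of 5 FPKM, TPM, median-of-ratios and quantile scaling, no trend, the replicate block, GC correction (lowess span 0.3), voom on rebuilt reads and each library left out. No value column was left out.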

Additional observations from a re-analysis of the deposited data

How the results depend on the processing

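No gene was called at the adjusted p and fold thresholds with all 6 libraries, whereas leaving out 1 library gave 0 to 1 higher genes (1 without control 1) and 0 to 2 lower genes (2 without I3 1 and 1 without I3 2). In the fit with all libraries 639 genes had an unadjusted p under 0.05, and 1417 did without control 1. Members other than PPP3R1 with an unadjusted p under 0.05 numbered 2, and 1 with a minimum of 5 FPKM, which RCAN1 does not reach. They numbered 1 to 3 with 1 library left out. The share of all tested genes at this threshold was 11% without control 1 and 3.55 to 5.14% without any other library. The 3 without control 1 were NFAT5, PPP3CC and PPP3CA, and without control 2, control 3, I3 2 or I3 3 it was NFAT5 alone. The cause was not tested.

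Small fold changes changed sign. The log2 fold change of NFATC1 was 0.020 with the GC correction and 0.020 with the replicate block and GC correction together, and -0.10 to 0.019 with 1 library left out (it is under the minimum without control 2). Leaving out 1 library gave -0.061 to 0.045 for PPP3CB, -0.083 to 0.0012 for NFATC2 and -0.080 to 0.026 for NFATC3. With the GC correction the log2 fold change was -0.069 for PPP3CB (-0.019 in the main fit) and -0.043 for NFATC3 (-0.016). For NFATC2 it was -0.039 (-0.041 in the main fit). PPP3CA, PPP3CC, NFAT5 and RCAN1 kept their sign in every alternative that gave a value. For PPP3CC, NFAT5 and RCAN1 the groups do not overlap, so leaving out 1 library could not turn it.

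The labels do not say whether the replicate numbers pair the libraries. Deviations from the group mean correlated at 0.063, 0.15 and -0.024 for same-numbered libraries and at -0.17 to 0.10 for the other pairs. These values cannot settle whether the libraries were paired. With the replicate block, 856 genes (6.6%) had an unadjusted p under 0.05 and the members past it numbered 2, as without the block (NFAT5 adjusted p = 0.697 and RCAN1 adjusted p = 0.706, limma). In 3 against 3 libraries no exact permutation p can fall below 0.1.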
